A study of Mus musculus with 6 samples.

Results

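Caspases are proteases that cut their substrates after aspartate residues and carry out apoptosis, a form of programmed cell death. The genes described here are Casp2, Casp6, Casp8, Casp9, Apaf1, Xiap, Cflar and Fas, chosen by name: 4 caspases and 4 genes that switch caspases on or hold them back. All 8 were found by gene ID among the 18822 genes with values. The tissue was renal glomeruli, where blood is filtered into urine. RNA was sequenced from 3 libraries of PR3 knockout mice (PR3_KO) and 3 of wild-type mice (WT), all C57BL/6J and all with diabetic kidney disease. PR3 is proteinase 3, the product of Prtn3, a serine protease stored in granules of neutrophils. Both genotypes carry the disease and no group without it was analysed here, so every difference below is between genotypes within diabetic kidney disease. The labels do not state how diabetes was brought about, the age and sex of the mice, the knockout allele or the number of mice behind each library.

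Apoptosis can start at the cell surface or at the mitochondria. At the surface, the death receptor Fas gathers an adaptor and procaspase-8, and the caspase-8-like protein c-FLIP, encoded by Cflar, competes for the same complex. At the mitochondria, released cytochrome c makes Apaf1 assemble into the apoptosome, which activates caspase-9. Both routes lead to executioner caspases, which XIAP, the protein of Xiap, can block by binding them and caspase-9. Caspases are made as inactive precursors and are switched on by assembly and cleavage, so RNA levels do not measure caspase activity.

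The 8 genes lie on 7 chromosomes in the mouse build GRCm38.p6, with positions and strands from RefSeq. Cflar (1:58711311-58758884) and Casp8 (1:58795233-58847503) are neighbours on the plus strand of chromosome 1, with 36348 bases between them. The others are Casp6 (3:129901415-129914112), Casp9 (4:141793612-141815978), Casp2 (6:42264902-42282508), Apaf1 (10:90989311-91082743, minus strand), Fas (19:34290647-34327775) and Xiap (X:42059613-42109664). In the GENCODE M21 annotation the exons of 7 of them overlapped no exon of another gene. Casp9 shared 94 of its 5197 exonic bases with genes on the opposite strand, Ctrc and Cela2a, and Cela2a was listed at 0 FPKM in every library.

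The RefSeq promoter table of GRCm38.p6 matched all 8 genes. Stretches before the start of Casp8, Fas and Casp9 are shown, 5′ to 3′ on the plus strand, because Casp8 and Fas were lower in PR3_KO and Casp9 did not pass the test. Capitals mark the GC box GGGCGG, the CCAAT box CCAAT and the TATA box TATAAA, searched on both strands.
Casp8 (chr1:58802252-58802501, which begins 7019 bases inside the annotated gene, before an inner start): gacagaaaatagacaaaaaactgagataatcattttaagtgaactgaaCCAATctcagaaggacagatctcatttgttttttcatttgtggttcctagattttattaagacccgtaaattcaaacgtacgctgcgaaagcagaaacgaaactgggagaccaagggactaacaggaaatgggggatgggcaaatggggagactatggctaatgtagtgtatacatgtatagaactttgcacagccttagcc
Fas (chr19:34290409-34290646): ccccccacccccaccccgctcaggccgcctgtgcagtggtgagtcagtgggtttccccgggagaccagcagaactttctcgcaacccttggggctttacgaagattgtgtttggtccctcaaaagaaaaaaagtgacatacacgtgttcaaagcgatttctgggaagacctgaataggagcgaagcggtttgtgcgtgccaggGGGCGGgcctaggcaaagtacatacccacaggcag
Casp9 (chr4:141793362-141793611): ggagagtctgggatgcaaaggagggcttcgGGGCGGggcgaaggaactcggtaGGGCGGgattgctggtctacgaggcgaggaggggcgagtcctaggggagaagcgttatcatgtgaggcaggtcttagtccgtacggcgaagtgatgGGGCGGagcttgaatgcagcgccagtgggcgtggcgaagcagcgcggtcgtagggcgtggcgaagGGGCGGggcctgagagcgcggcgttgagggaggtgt

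Over the 250 bases of each window in the promoter table, that of Casp8 held 39.6% G and C with no GC box and 1 CCAAT box. The windows of Cflar, Casp2 and Fas run past the annotated gene start. Those of Casp8 and Xiap lie inside the annotated gene. The Casp9 promoter held 66.0% G and C with 4 GC boxes, and the Fas promoter 56.4% with 1 GC box. The Cflar window was AT-rich like that of its neighbour Casp8, at 42.8%, with 2 TATA box matches. Apaf1 had the highest content, 75.6%, with 2 GC boxes, and Casp2 and Casp6 had 60.4% and 58.4% with 1 GC box each. The Casp2 window also held 2 CCAAT boxes. Xiap has 3 starts in the table, at 57.6%, 46.4% and 39.2%. The windows at 57.6% and 46.4% held 1 GC box each, and that at 39.2% held 1 TATA box match. Over all 32851 windows of the same length the median was 52.4%, and 32.7% held a GC box, 33.8% a CCAAT box and 12.4% a TATA box. A match of letters is a description, not a site. Apaf1 and Casp8, both lower in PR3_KO, lay near opposite ends of the range of base composition.

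Values are FPKM, fragments scaled to transcript length and to the mapped fragments of the library, so levels of different genes can be set side by side. A mean carries the SD over a genotype (n = 3). Fold changes are differences of log2(FPKM + 1), PR3_KO minus WT, with limma's standard error (SE), and they understate the change of low genes. Adjusted p-values are limma's, by the Benjamini-Hochberg method over the 12388 genes that averaged 1 FPKM or more, with a threshold of 0.05. The labels do not say that libraries came from separate mice, so the p-values measure the spread between these libraries only, which may be technical. In bulk tissue, fewer cells of a type and less RNA per cell cannot be told apart.

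The files hold no read totals. The most common value above 0 among olfactory receptor genes was taken as 1 fragment. It gave a depth of about 13300000 fragments for WT 1 and 15200000 for each of the others. This is a rough estimate that rests on 3 to 7 genes per library. That value was 0.08 FPKM in WT 1 and 0.07 FPKM in the others, rounded to 2 decimals, so the estimate cannot tell the depths of the libraries apart. Prtn3, the targeted gene, read 0.14, 0 and 0.07 FPKM in PR3_KO 1, 2 and 3, below its 0.46, 0.21 and 0.22 FPKM in WT 1, 2 and 3 (exact permutation p = 0.1, the smallest possible). These values stand for very few fragments. Defining markers of podocytes, glomerular endothelium and mesangium were above 0 in every library, and so were proximal tubule markers. The median difference of all tested genes was -0.26. Under median-of-ratios scaling, in which each library is divided by its median ratio to the average library, it was 0.00. Differences below are as deposited, and for the 8 genes the scaled value is added where it changes a call or moves the value by over 1.5 times.

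Of the 8 genes, 5 fell in PR3_KO and 0 rose: Xiap, Fas, Apaf1, Cflar and Casp8. Casp2, Casp6 and Casp9 did not pass the test. Over all tested genes 52.8% passed, 41.1% lower and 11.7% higher, so a lower level in PR3_KO was common in these libraries. The median difference of the 8 genes was -0.66 against -0.26 over all genes. The PR3_KO and WT libraries did not overlap, with PR3_KO lower, in the same 5 genes, and in 49.1% of all genes. Under median-of-ratios scaling the 5 falls still passed, and Casp9 passed as higher. On that scale 23.5% of all genes were lower and 24.0% higher.

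**Figure D1:**
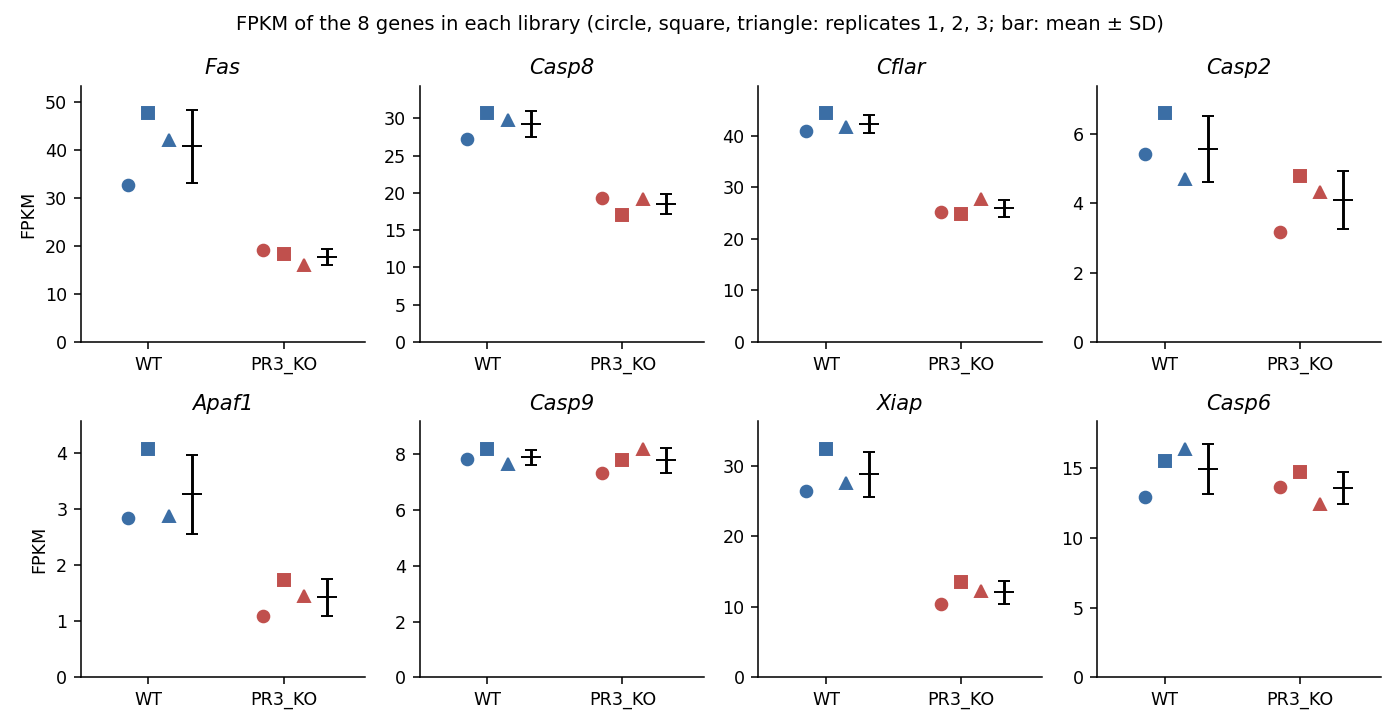
FPKM (y axis, from 0) of each of the 8 genes in the 3 WT and 3 PR3_KO libraries; circles, squares and triangles are replicates 1, 2 and 3, and the bar beside each group is mean ± SD. Fas, Casp8, Cflar, Apaf1 and Xiap show no overlap between genotypes, while Casp2, Casp6 and Casp9 do overlap.

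Of the surface route, Fas, Casp8 and Cflar all fell. Fas, the receptor that starts it, stood at 19.18, 18.25 and 15.96 FPKM in the knockouts (PR3_KO 1, 2 and 3) and at 32.65, 47.65 and 42.13 FPKM in the wild type (WT 1, 2 and 3). Every PR3_KO library was below every WT library, and WT 2 was the highest. The means were 17.8 ± 1.66 and 40.8 ± 7.59 FPKM, 2.29-fold lower in PR3_KO, with a log2 fold change of -1.14 (SE 0.15, limma adjusted p = 0.00108). The WT libraries spread more widely than the PR3_KO libraries, from 32.65 to 47.65 FPKM.

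Casp8 encodes the initiator caspase that Fas recruits. It read 19.36, 16.97 and 19.18 FPKM in PR3_KO 1, 2 and 3, against 27.27, 30.67 and 29.82 FPKM in WT 1, 2 and 3. The gap between the genotypes was wider than the range within either. Casp8 fell from 29.3 ± 1.77 to 18.5 ± 1.33 FPKM, or by 0.63 on the log2 scale (SE 0.10, limma adjusted p = 0.00176). Under median-of-ratios scaling the difference was -0.35 (limma adjusted p = 0.0240).

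Cflar encodes c-FLIP, which resembles caspase-8 but lacks its protease activity. It stood at 25.33, 24.76 and 27.74 FPKM in the knockouts (PR3_KO 1, 2 and 3) and at 40.97, 44.40 and 41.73 FPKM in the wild type (WT 1, 2 and 3). Both groups were tight and far apart. The means were 25.9 ± 1.58 and 42.4 ± 1.80 FPKM, with a log2 fold change of -0.69 (SE 0.09, limma adjusted p = 0.00118), or -0.40 under median-of-ratios scaling (limma adjusted p = 0.0101). Gene-level FPKM does not separate the long and short c-FLIP isoforms, which come from the same gene.

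Of the mitochondrial route, the scaffold fell and the protease did not pass the test. Apaf1, the scaffold, was the lowest of the 8 genes. It read 1.09, 1.74 and 1.44 FPKM in PR3_KO 1, 2 and 3, against 2.84, 4.07 and 2.87 FPKM in WT 1, 2 and 3. The highest PR3_KO library was below the lowest WT library. Apaf1 fell from 3.26 ± 0.702 to 1.42 ± 0.325 FPKM, 2.29-fold, with a log2 fold change of -0.81 (SE 0.16, limma adjusted p = 0.00506). At so low a level the pseudocount of 1 FPKM matters: with 0.1 the log2 fold change was -1.14.

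Casp9, the protease that Apaf1 activates, read 7.33, 7.81 and 8.21 FPKM in PR3_KO 1, 2 and 3, against 7.83, 8.20 and 7.66 FPKM in WT 1, 2 and 3. PR3_KO 3 was the highest and PR3_KO 1 the lowest of all 6 libraries, so the groups overlapped fully. The means were 7.78 ± 0.441 and 7.90 ± 0.276 FPKM, and the difference was -0.02 with a 95% interval of -0.24 to 0.20 (limma adjusted p = 0.872). Relative to the median gene, which was lower in PR3_KO, Casp9 was higher: under median-of-ratios scaling it was at 0.24 (limma adjusted p = 0.0404). With library sums made equal it was at -0.18, and with each library left out in turn it lay between -0.05 (without PR3_KO 3) and 0.02 (without PR3_KO 1), on both sides of 0.

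Xiap, which encodes the inhibitor XIAP, also fell. It stood at 10.40, 13.56 and 12.17 FPKM in the knockouts (PR3_KO 1, 2 and 3) and at 26.35, 32.42 and 27.49 FPKM in the wild type (WT 1, 2 and 3). The lowest WT library was far above the highest PR3_KO library. Xiap fell from 28.8 ± 3.23 to 12.0 ± 1.58 FPKM, 2.39-fold, with a log2 fold change of -1.19 (SE 0.125, limma adjusted p = 0.000786). That difference lay at the 6.34th percentile of all tested genes, and that of Fas at the 7.14th.

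Casp2 and Casp6 did not pass the test. Casp2, an initiator activated through the PIDD1 and CRADD adaptors, read 3.16, 4.79 and 4.31 FPKM in PR3_KO 1, 2 and 3, against 5.42, 6.59 and 4.69 FPKM in WT 1, 2 and 3. PR3_KO 2 and WT 3 overlapped, and the difference of -0.37 did not pass (95% interval -0.75 to 0.00, limma adjusted p = 0.0863). It passed with each library divided by its own FPKM sum (-0.55, limma adjusted p = 0.0477). On that scale 6664 of 13251 tested genes fell, and the median difference was -0.43. The Casp2 difference was smaller under median-of-ratios scaling (-0.13, limma adjusted p = 0.465) and without PR3_KO 1 (-0.23, limma adjusted p = 0.260).

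Casp6, usually counted among the executioners, was at 13.65, 14.73 and 12.42 FPKM in PR3_KO 1, 2 and 3. It was at 12.94, 15.54 and 16.41 FPKM in WT 1, 2 and 3. The groups overlapped, and the difference was -0.13 (95% interval -0.39 to 0.14, limma adjusted p = 0.381). Its direction turned under median-of-ratios scaling (0.15, limma adjusted p = 0.296), the value was -0.29 with library sums made equal, and it ranged from -0.22 without WT 1 to -0.06 without WT 3, with -0.07 without PR3_KO 3. A difference the size of that of Xiap or Fas lies outside the intervals of Casp2, Casp6 and Casp9 for the values as deposited.

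**Figure D2:**
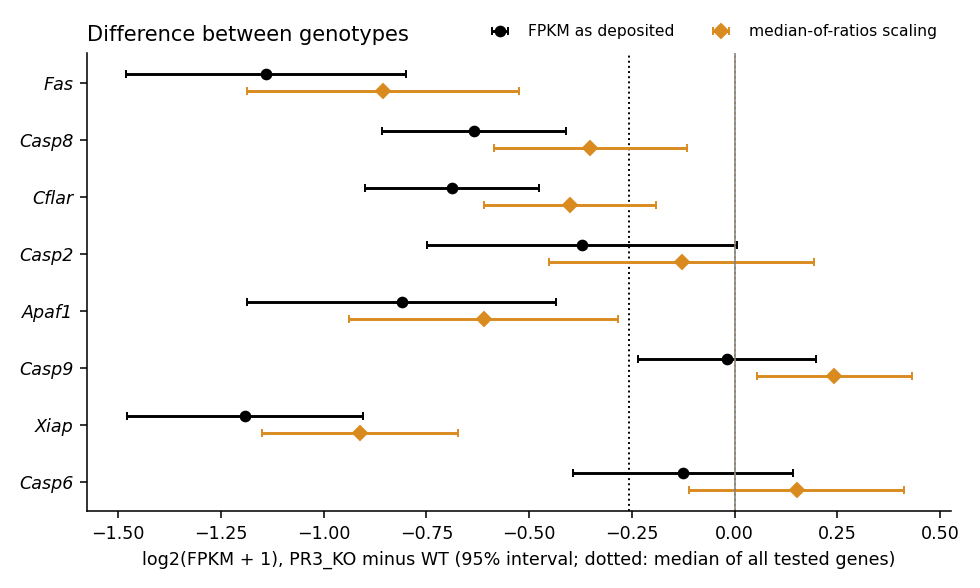
Difference between genotypes in log2(FPKM + 1), PR3_KO minus WT (x axis), for each of the 8 genes with its 95% interval, as deposited (black circles) and under median-of-ratios scaling (orange diamonds); dotted lines mark the median of all tested genes on each scale. The scaling moves all 8 genes to the right, leaves Fas, Casp8, Cflar, Apaf1, Xiap and Casp2 below 0, and places Casp6 and Casp9 above 0, of which Casp9 passed.

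The genes kept a similar order of level across libraries. Cflar had the highest mean over the 6 libraries, 34.2 FPKM, followed by Fas at 29.3, Casp8 at 23.9 and Xiap at 20.4 FPKM. Casp6 followed at 14.3, Casp9 at 7.84, Casp2 at 4.83 and Apaf1 at 2.34 FPKM. The 3 lowest, Casp9, Casp2 and Apaf1, held ranks 6, 7 and 8 in all 6 libraries. The upper ranks changed with genotype. In WT, Cflar and Fas overlapped in range, as did Casp8 and Xiap. In PR3_KO, Fas and Casp8 overlapped and so did Casp6 and Xiap, so that Xiap ranked 5 in every PR3_KO library and 3 or 4 in WT, and Casp6 ranked 4 in PR3_KO and 5 in WT.

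Ratios of 2 genes within a library do not depend on how that library was scaled. For 6 such ratios a two-sided exact permutation test was used, whose smallest p for 3 against 3 libraries is 0.1, with p-values adjusted over the 6 ratios. The Casp8 to Casp9 ratio was added after its values were seen.

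Cflar and Casp8 differed by similar amounts. The ratio of Cflar to Casp8 was 1.31, 1.46 and 1.45 in PR3_KO 1, 2 and 3, against 1.5, 1.45 and 1.40 in WT 1, 2 and 3. The groups overlapped, with a log2 difference of -0.05 (exact permutation p = 0.6, adjusted 0.6), which ran from -0.08 without PR3_KO 2 to 0.00 without PR3_KO 1. Cflar RNA exceeded Casp8 RNA per length in all 6 libraries, by a similar factor in both genotypes.

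Xiap and Casp9 did not. The ratio of Xiap to Casp9 was 1.42, 1.74 and 1.48 in PR3_KO 1, 2 and 3, against 3.37, 3.95 and 3.59 in WT 1, 2 and 3. The genotypes did not overlap, and the log2 difference was -1.24 (exact permutation p = 0.1, adjusted 0.15). The ratio of Apaf1 to Casp9 was 0.149, 0.223 and 0.175 in PR3_KO, against 0.363, 0.496 and 0.375 in WT, with a log2 difference of -1.18 (exact permutation p = 0.1, adjusted 0.15), or -0.79 when 1 FPKM was added to both genes. Relative to Casp9, both of these regulators of caspase-9 were lower in each of the 3 PR3_KO libraries than in any WT library. Casp9 itself differed by only -0.02, so these ratios largely repeat the falls of Xiap and Apaf1 given above.

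Fas was lower relative to Casp8 as well. The ratio of Fas to Casp8 was 0.991, 1.08 and 0.832 in PR3_KO 1, 2 and 3, against 1.20, 1.55 and 1.41 in WT 1, 2 and 3. The groups did not overlap (log2 difference -0.52, exact permutation p = 0.1, adjusted 0.15). Casp8 relative to Casp9 was 2.64, 2.17 and 2.34 in PR3_KO, against 3.48, 3.74 and 3.89 in WT (log2 difference -0.64, exact permutation p = 0.1, adjusted 0.15). For Casp2 relative to Casp6 the genotypes overlapped (log2 difference -0.32, exact permutation p = 0.3, adjusted 0.36), and the difference was -0.14 without PR3_KO 1 and -0.51 without WT 3.

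**Figure D3:**
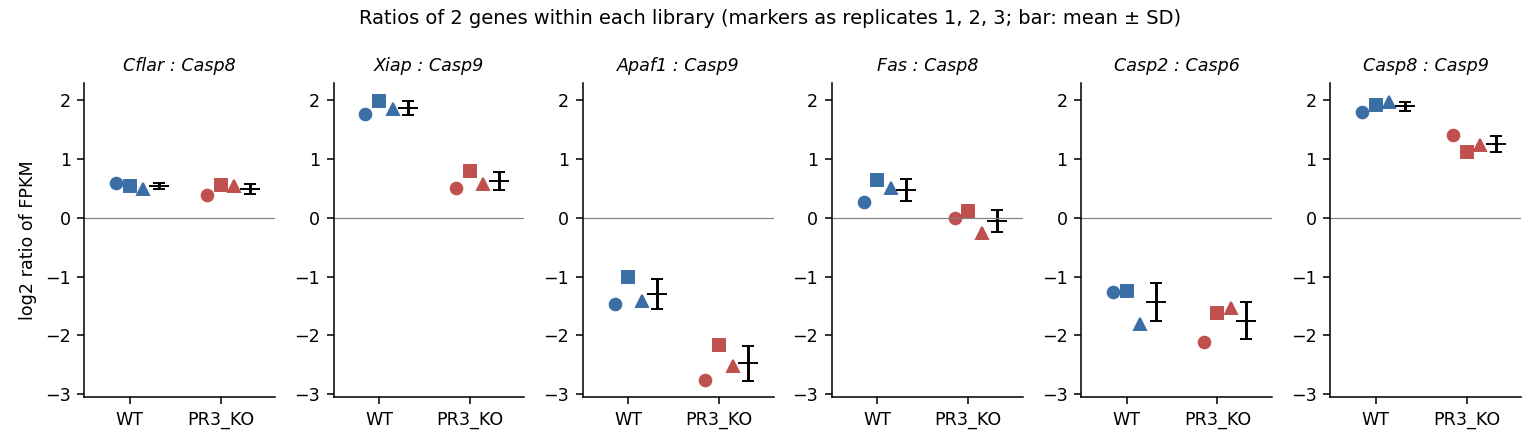
Log2 ratio of FPKM of 2 genes within each library (y axis, shared by all panels) in WT and PR3_KO; markers are replicates 1, 2 and 3 as in the plot of FPKM, and bars are mean ± SD. Cflar to Casp8 stays near 0.5 in both genotypes, while Xiap to Casp9 lies near 1.9 in WT and near 0.6 in PR3_KO.

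The rest of the caspase pathway was read from a list of 51 genes by role, of which 45 were tested. There, 25 fell and 4 rose, against 41.1% and 11.7% of all genes, with a median of -0.50 against -0.26. Under median-of-ratios scaling 20 fell and 9 rose, against 23.5% and 24.0% of all genes on that scale. The counts by role below are for the values as deposited, with 41.1% lower and 11.7% higher over all genes as their background.

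All 3 tested genes of the other caspases listed, which belong to the inflammatory group, fell. Casp1, which the inflammasome activates, fell from 9.11 ± 4.07 FPKM in WT to 1.45 ± 0.260 FPKM, with a log2 fold change of -1.97 (SE 0.28, limma adjusted p = 0.00143). Casp4, the sensor of intracellular lipopolysaccharide, fell by 1.49 and Casp12 by 1.38 (limma adjusted p = 0.00375 and 0.00809). Without both WT 2 and PR3_KO 3 Casp12 was at -0.88 (limma adjusted p = 0.00257). The epidermal caspase gene Casp14 was untested, at 0.06 FPKM in PR3_KO 2 and 0 in the other libraries.

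Among death receptors and ligands 3 of 5 tested genes fell and 1 rose. The TNF receptor gene Tnfrsf1a fell from 90.3 ± 16.8 to 42.0 ± 6.74 FPKM, the TRAIL receptor gene Tnfrsf10b fell by 0.73 and the ligand gene Tnf by 1.79 (limma adjusted p = 0.00184, 0.00179 and 0.00177). Tnf averaged 0.193 FPKM in PR3_KO, and its log2 fold change was -3.47 with a pseudocount of 0.1. Tnfrsf21, which encodes death receptor 6 and is named after its values were seen, rose from 38.8 ± 11.7 to 82.2 ± 12.3 FPKM (1.10 on the log2 scale, limma adjusted p = 0.00586). Fasl, the ligand of Fas, was below the filter: 0.10, 0.04 and 0.11 FPKM in PR3_KO and 0.23, 0.38 and 0.07 FPKM in WT (exact permutation p = 0.3).

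Of 14 tested adaptors and kinases of death complexes, 6 fell and 1 rose, near the shares over all genes. Their median difference was -0.13, against -0.26 over all genes. Faim, an inhibitor of Fas signalling, fell from 16.5 ± 1.52 to 6.53 ± 0.396 FPKM, and Pea15a, a death effector domain protein that binds FADD, fell by 1.04 (limma adjusted p = 0.000684 and 0.00190). Dedd2, another death effector domain gene, rose from 10.3 ± 0.776 to 15.6 ± 0.786 FPKM (limma adjusted p = 0.00271). Fadd, the adaptor between Fas and caspase-8, is named after its values were seen. It read 8.40, 7.93 and 8.44 FPKM in PR3_KO against 9.32, 8.53 and 9.11 FPKM in WT, a narrow gap, and the difference of -0.11 did not pass (limma adjusted p = 0.335).

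Of 6 tested inhibitor of apoptosis genes besides Xiap, 5 fell and 0 rose. Naip5 and Naip2 fell by 1.04 and 1.14 (limma adjusted p = 0.00176 and 0.00421). They belong to a family of near-identical copies, so their values are uncertain. Birc3, which encodes the ubiquitin ligase cIAP2, fell from 15.6 ± 5.51 to 7.03 ± 0.699 FPKM (limma adjusted p = 0.00668).

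Of 7 tested mitochondrial factors and antagonists of inhibitors, 2 fell and 1 rose, with a median of 0.23. Xaf1, which encodes a binding partner of XIAP, fell from 22.1 ± 9.76 FPKM in WT to 7.83 ± 0.991 FPKM in PR3_KO (log2 difference -1.31, limma adjusted p = 0.00498). Septin4, which has an XIAP-binding isoform, fell by 0.80 (limma adjusted p = 0.0268). Endog, a mitochondrial nuclease, rose by 0.55 (limma adjusted p = 0.0363). Without PR3_KO 1 and without WT 2 in turn, neither passed (Septin4 -0.59 and -0.58, Endog 0.36 and 0.42, limma adjusted p = 0.0831, 0.0598, 0.0936 and 0.0858). Septin4 was also not past the threshold under median-of-ratios scaling (-0.52, limma adjusted p = 0.0843) and without PR3_KO 3 (limma adjusted p = 0.0558), nor Endog without WT 3 (limma adjusted p = 0.0583), with library sums made equal (0.39, limma adjusted p = 0.0645) or with no filter (limma adjusted p = 0.0585).

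Among 10 caspase substrates 6 fell and 1 rose. Rock1, a kinase whose cleavage drives membrane blebbing, fell from 19.5 ± 2.16 to 7.37 ± 1.37 FPKM (limma adjusted p = 0.000831). Gsdmd, the pore-forming substrate of the inflammatory caspases, fell by 1.56 and the kinase gene Pak2 by 0.54 (limma adjusted p = 0.00285 and 0.00346), and Pak2 was at -0.26 under median-of-ratios scaling (limma adjusted p = 0.0332). Bid, through which caspase-8 acts on mitochondria, is named after its values were seen. It rose from 25.6 ± 0.624 to 35.2 ± 2.69 FPKM (0.44 on the log2 scale, limma adjusted p = 0.00632).

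**Figure D4:**
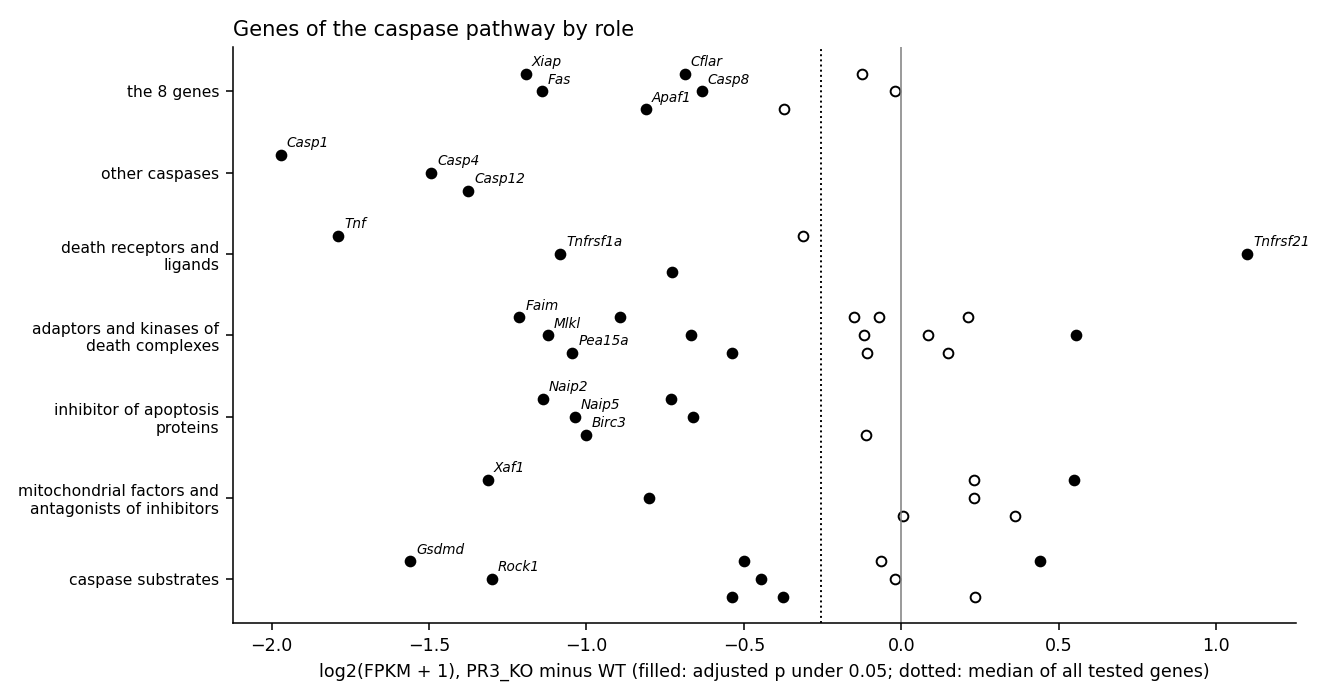
Difference between genotypes in log2(FPKM + 1), PR3_KO minus WT (x axis), for the 8 genes and 45 other tested genes by role (rows; small vertical offsets only separate points). Filled points passed at an adjusted p under 0.05, and the dotted line is the median of all tested genes, -0.26; most filled points lie to its left, and Tnfrsf21 is the farthest to the right.

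Markers of several cell types moved with genotype beside these genes. For comparison, 41.1% of all tested genes fell and 11.7% rose. All 8 markers of glomerular endothelium fell, and their summed level was 795 to 1110 FPKM in PR3_KO and 2169 to 2627 FPKM in WT (median log2 fold change -1.30). All 8 macrophage markers fell too, from a sum of 256.5 to 595 FPKM in WT to 29.0 to 66.8 FPKM in PR3_KO (median -2.87). Of 8 podocyte markers 3 fell and 0 rose (median -0.57), with sums of 321 to 522 and 582 to 941 FPKM, and of 6 mesangial and smooth muscle markers 4 fell. Of 8 proximal tubule markers 7 rose and 0 fell, and without the very abundant Kap their sum was 4067 to 4382 FPKM in PR3_KO and 1450 to 2489 FPKM in WT. Of 4 parietal epithelium markers 2 rose and 1 fell, and of 5 distal nephron markers 2 fell. The shares of podocyte and distal nephron markers that fell were close to that of all genes. Of the 2 lymphocyte markers that were tested neither passed. No marker of these 8 lists was at 0 in any library.

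The part of these cell types in the differences of the 8 genes was not tested. Of 6 tested neutrophil markers 1, Ly6g, rose and 0 fell, and Mpo was at 0 in some libraries. Their sum stood apart in PR3_KO 3, at 341 FPKM against 31.3 and 26.1 FPKM in PR3_KO 1 and 2 and 135 to 225 FPKM in WT. Leaving out PR3_KO 3 changed no call of the 8 genes. With the mean log2(FPKM + 1) of the proximal tubule markers as a covariate, 0 of the 12388 genes passed (limma, 659 at an unadjusted p under 0.05), and the 5 falls were no longer called. That score correlated with genotype at 0.948 over the 6 libraries, so the score and genotype can hardly be told apart in this fit.

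Within a genotype the 8 genes did not all follow the same library. Xiap, Apaf1 and Casp2 were lowest in PR3_KO 1 and highest in PR3_KO 2 among the knockouts, which is also the order of the summed podocyte, endothelial, mesangial and distal nephron markers. Casp8 and Fas were instead highest in PR3_KO 1, the knockout library with the highest macrophage sum. Casp8 was nearly as high in PR3_KO 3, at 19.18 against 19.36 FPKM. Cflar was highest among the knockouts in PR3_KO 3, which had the lowest macrophage sum. In WT, 7 of the 8 genes were highest in WT 2, and the exception was Casp6, highest in WT 3. WT 2 also had the highest podocyte, endothelial, mesangial and distal nephron sums and the lowest proximal tubule sum of the 6 libraries. The macrophage sum was instead highest in WT 3, at 595 FPKM against 538 FPKM in WT 2. With 3 libraries per genotype these orders are a description only.

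For each gene, the tested gene with the most similar pattern was taken by Pearson correlation of log2(FPKM + 1) over the 6 libraries, among 12058 genes without predicted ones. These were Rarb for Casp2 (r = 0.996), Arhgap8 for Casp6 (r = 0.992), F10 for Casp8 (r = 0.999) and Pcgf3 for Casp9 (r = 0.990). For Apaf1, Xiap, Cflar and Fas they were Fchsd2, Frmd4a, Herpud2 and Med10 (r = 0.9996, 0.9998, 0.999 and 0.999). The 6 libraries fall into 2 genotypes, so a gap between the groups that both genes share raises r. F10, at 0.34 to 0.98 FPKM in PR3_KO and 4.94 to 8.50 FPKM in WT, differed far more than Casp8 did.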

How the data were processed

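The authors deposited FPKM to 2 decimals, per the file headers, with no counts. Per the submitters' processing notes, Bowtie2 and the build GRCm38.p6 were used; for its version, the quantification tool, the annotation and strand use: not given in the sources used here. RNA was isolated in Trizol, selected on oligo(dT) beads and read by DNBSEQ, per the labels' protocols.

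Each file lists 22064 gene IDs, 3242 of them empty in every file. Symbols came from a RefSeq table of GRCm38.p6 (18770 of 18822 IDs matched). FPKM is relative to the library total, so a few very abundant transcripts can lower the values of all others.

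The 12388 genes that averaged 1 FPKM or more were fitted as log2(FPKM + 1) with limma 3.58.1 and statmod 1.5.0 in R 4.3.3, with genotype as the only term, an intensity trend and robust moderation. The fit was tested on simulated data with few changed genes and independent noise. That differs from these libraries, where 52.8% of tested genes passed, so it cannot show how the fit behaves here. Genes under the filter and ratios had exact permutation tests, computed with Python 3.11.15, numpy 2.4.6 and pandas 2.3.3; figures used matplotlib 3.10.9. The genes and lists were chosen with earlier results of these data known, and some genes of the pathway are not reported here. Named beyond the 8 genes are Prtn3, the other caspases listed, the 3 tested genes per other role with the smallest adjusted p, the most similar gene per member and those marked as chosen after their values were seen. Alternatives were 2 other scalings, a pseudocount of 0.1 FPKM, no filter, limma without trend and robust moderation, each library left out, the replicate block and a proximal tubule covariate. Leaving out WT 2 and PR3_KO 3 together was added after seeing the data.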

Additional observations from a re-analysis of the deposited data

How the results depend on the processing

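Xiap, Fas, Apaf1, Cflar and Casp8 kept their direction and their call under the 13 alternatives other than the proximal tubule covariate, Xiap between -1.38 and -0.91, Fas between -1.32 and -0.86, Apaf1 between -1.14 and -0.61, Cflar between -0.86 and -0.40 and Casp8 between -0.81 and -0.35. With that covariate 0 of the 8 genes, 0 of the wider pathway in either direction and 0 of all genes in either direction passed (limma), and the values were -0.67, -0.19, -0.11, -0.53 and -0.39 (limma adjusted p = 0.924, 0.981, 0.996, 0.927 and 0.956). Casp2, Casp6 and Casp9, below 0 as deposited, turned to 0.04, 0.37 and 0.06 with that covariate. In the wider pathway values turned to 0.13 for Casp1, 0.50 for Casp4, 0.53 for Casp12, 0.14 for Tnf and 0.32 for Naip2. They also turned to 0.55 for Birc3, 0.38 for Xaf1, 0.18 for Septin4, 0.30 for Gsdmd and -0.11 for Endog. None of these values was past the threshold, and the cause was not tested.

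With median-of-ratios scaling 2958 genes rose and 2907 fell over all genes, 9 rose in the wider pathway, and 1 of the 8, Casp9, rose at 0.24 in place of -0.02. With library sums made equal 928 genes rose and 6664 fell over all genes, and Casp2 passed at -0.55. Leaving out a library in turn gave 916 (without PR3_KO 1) to 1518 genes that rose, and 936 without PR3_KO 3, against 1454. The ratio of Apaf1 to Casp9 was -0.79 with 1 FPKM added. The order of mean levels did not change on the log2 scale. Deviations from the genotype mean correlated at r = 0.07, 0.27 and -0.09 between same-numbered libraries (replicates 1, 2 and 3). Between differently numbered libraries r ran from -0.26 to 0.32. With 3 libraries per genotype this cannot settle whether the numbers pair them. With the replicate block 1550 genes rose and 5143 fell, and 5 of the 8 genes fell. Low FPKM values, for some genes in PR3_KO only, limit what can be said of genes such as Apaf1, Tnf, F10, Casp14, Fasl, Mpo and Prtn3.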
